A study of Homo sapiens with 12 samples.

Results

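The cultures described here are HK-2 cells, a human proximal tubule epithelial line immortalised with papillomavirus oncogenes, after 48 h with a compound that the labels name Kbr or with its vehicle. The members are the 6 arrays of that time among the 12 arrays of the series, 3 titled Kbr t48h and 3 titled t48h control, and they were paired by replicate number. The other 6 arrays hold the same groups at 24 h. The dose is given only as high, and the concentration, the vehicle and what Kbr stands for are not given in the sources used here. All cultures were grown in the same hormone-supplemented medium (DMEM with Ham's F12, EGF, hydrocortisone, insulin, transferrin and selenium), were seeded 24 h before exposure and were near confluence when it began. Replicates are called biological in the labels, and all come from 1 cell line. Of 19775 genes with a probe set of their own, 10574 were tested, those with a log2 value over 4 in 3 or more of the 12 arrays. Kbr 48 h replicate 3 is shown apart for the gene groups and for the genes whose pairs differed most; values with an SE are means of the 3 pairs.

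Proximal tubule cells reabsorb most of what the glomerulus filters and are exposed to many reactive compounds. Cells meet such compounds with several programmes. NRF2, a transcription factor held by KEAP1 until cysteines of KEAP1 are modified, drives glutathione and antioxidant genes. HSF1 drives cytosolic chaperones when proteins misfold. In the endoplasmic reticulum (ER), the sensors IRE1, PERK and ATF6 start the unfolded protein response, which raises ER chaperones, and PERK also raises ATF4, which drives amino acid transport and synthesis genes.

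Values below are log2 GCRMA values (probe set summaries corrected for background binding), in the order of replicates 1, 2 and 3. A difference is the Kbr value minus the control value of the same replicate number, SE is limma's moderated standard error, and a gene is called where the Benjamini-Hochberg adjusted p of limma's paired fit is under 0.05. Across the 12 arrays medians were 2.89 to 2.96, and the number of arrays limits the precision. Kbr 48 h replicate 3 lay farther from its group mean (root mean square deviation 0.290) than any other array (0.164 to 0.228). The 18S and 28S ribosomal RNA signals were higher in all 3 Kbr than in all 3 control arrays of 48 h, by 0.51 and 0.46. With the pairing ignored, the two-sided exact permutation p was 0.1 each, the smallest possible (0.2 adjusted over 4 measures). With signs exchanged within the 3 pairs, the exact permutation p was 0.25 each, again the smallest possible. The 3' to 5' differences of GAPDH and ACTB overlapped between the groups. The part of these measures in the results was not tested.

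After 48 h the level of most measured genes differed between Kbr and vehicle cultures. Of 10574 genes, 7338 (69.4%) were called, 3310 (31.3%) higher and 4028 (38.1%) lower in Kbr. Most of these changes were small, 66.1% of them under 2-fold. Falls outnumbered rises among the large ones: 842 genes (7.96%) rose and 1646 (15.6%) fell at least 2-fold, 82 and 404 at least 4-fold, and 9 and 105 at least 8-fold. In 6639 genes (62.8%) the 3 Kbr arrays did not overlap the 3 control arrays. Tested probe set by probe set, 12893 of 19345 (66.6%) were called. Without the replicate block 2840 genes were higher and 3466 lower, and 6299 of the 7338 were called the same way. Quantile normalization moved the median of all genes by 0.13, from -0.06 to 0.08, and turned the split to 4218 higher and 3472 lower, so gene groups are set beside all genes below. It also narrowed the excess of falls of at least 2-fold, to 1078 higher and 1336 lower. With median centring these counts were 1026 and 1455.

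**Figure D1:**
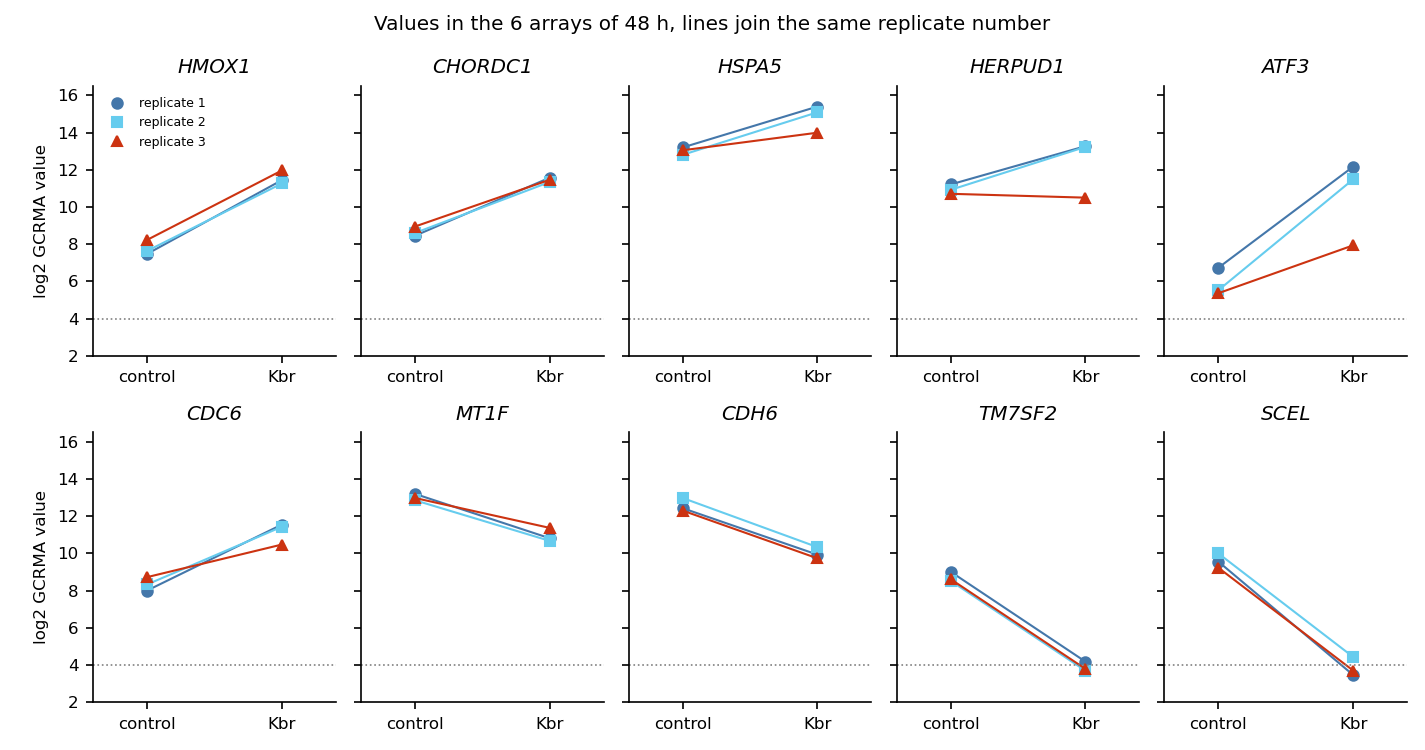
Log2 GCRMA values of 10 genes in the 6 arrays of 48 h, control on the left and Kbr on the right of each panel; lines join arrays of the same replicate number and the dotted line marks a value of 4. HMOX1, CHORDC1, CDH6, TM7SF2 and SCEL moved alike in the 3 pairs, while HERPUD1 and ATF3 stood apart in replicate 3.

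The largest rise was in ATF3, a stress-induced transcription factor of the ATF family (probe set 202672_s_at). Its control values were 6.74, 5.53 and 5.37 and its Kbr values 12.17, 11.48 and 7.94. Replicates 1 and 2 differed from their controls by 5.43 and 5.96, and replicate 3 by 2.57, so that the mean of 4.65 (SE 0.92, adjusted p = 0.00159) is of unequal parts. ADM, the vasodilator peptide adrenomedullin, went from 5.04, 6.30 and 6.07 to 10.27, 10.22 and 9.83 (log2 fold change 4.30, SE 0.26, adjusted p = 2.23e-06). Arrays that do not overlap were a condition for the largest rises, and 62.8% of all genes met it. FOSL1, a subunit of the transcription factor AP-1, went from 3.95, 3.15 and 5.38 to 7.57, 6.96 and 8.40. Its replicate 3 was the highest array in both groups, and the differences (3.63, 3.82 and 3.02) were closer to each other than the levels.

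Among the others of the 15 largest rises were DDIAS, a DNA damage-induced apoptosis suppressor (3.36, SE 0.25; 3.88, 3.52 and 2.68 in the 3 pairs), and TNFAIP6, a secreted hyaluronan-binding protein (3.19, SE 0.28), whose control values of 3.02, 3.46 and 3.47 lay under 4. GPAT3, an enzyme of triglyceride synthesis, stood at 2.83 (SE 0.20) and LURAP1L, a relative of an NF-kB adaptor, at 2.81 (SE 0.42), with pairs of 3.37, 3.29 and 1.76. The rest of the 15 belong to groups described below. Replicate 3 had the smallest difference of the 3 pairs in 12 of these 15 genes, and in 11 of the 15 largest falls. All 30 were called without Kbr 48 h replicate 3 as well.

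The largest fall was in SCEL, sciellin of the cornified envelope (206884_s_at), which went from 9.56, 10.00 and 9.23 to 3.48, 4.44 and 3.71. Its log2 fold change was -5.72 (SE 0.15, adjusted p = 1.56e-07), or 52.8-fold, and the probe set's signal in Kbr was at the level of background. EFEMP1, the matrix glycoprotein fibulin, fell from 8.26, 8.53 and 8.32 to 2.84, 2.39 and 3.77 (-5.37, SE 0.29, adjusted p = 1.38e-06). A weaker probe set of EFEMP1 fell by 1.41. ENPP3, an ectonucleotidase, stood at -5.05 (SE 0.49), ENDOD1, an endonuclease domain protein, at -4.85 (SE 0.16), and the adaptor BLNK at -4.82 (SE 0.33). SLC40A1, the iron exporter ferroportin, fell from 7.86, 8.09 and 7.44 to 3.44, 3.11 and 3.39 (-4.49, SE 0.23, adjusted p = 1.09e-06). Arrays that do not overlap were a condition for being named here.

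The other large falls touched transport, complement and transcription. SLC17A3, an organic anion and urate transporter, stood at -4.39 (SE 0.24) and SLC27A2, a fatty acid transporter and very long-chain acyl-CoA synthetase, at -4.23 (SE 0.20). Of complement genes, C1RL, a C1r-like protease, stood at -4.46 (SE 0.29) and CFB, complement factor B, at -4.29 (SE 0.22), although the unsuffixed probe set of CFB was at -0.05 (adjusted p = 0.637). CYS1, the cilium-associated protein cystin, fell from 11.42, 11.16 and 10.72 to 7.27, 6.38 and 6.34 (-4.44, SE 0.11, adjusted p = 1.28e-07). The transcription factors HLF (-4.24, SE 0.28) and TFCP2L1 (-4.16, SE 0.22) and the protocadherin FAT4 (-4.19, SE 0.19) completed the 15. In 12 of the 15 the Kbr mean was under a log2 value of 4, against 2 of the 15 largest rises with a control mean under it, so the size of these falls is limited by the background signal.

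**Figure D2:**
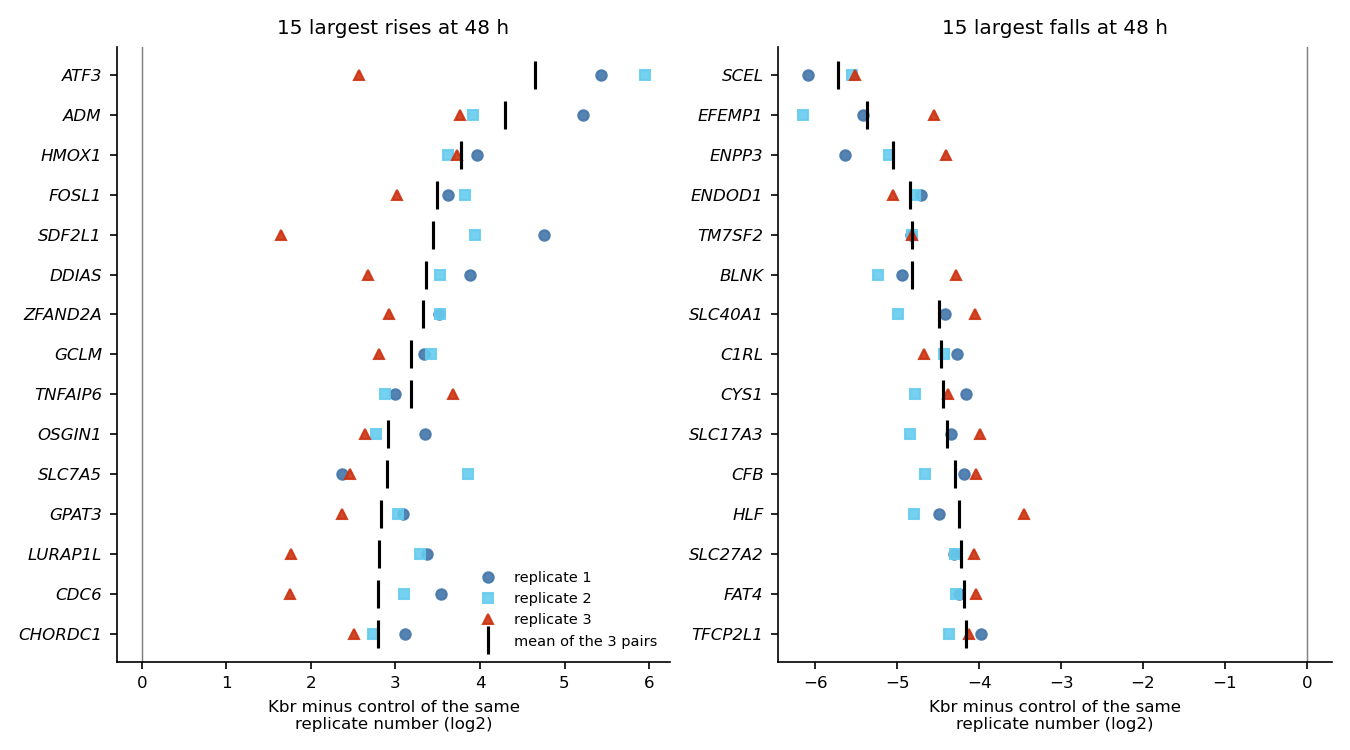
Kbr minus control differences (log2) of the 15 largest rises (left) and the 15 largest falls (right) at 48 h; circles, squares and triangles are replicates 1, 2 and 3, and the black bar is the mean of the 3 pairs. Replicate 3 has the smallest rise in 12 of 15 and the smallest fall in 11 of 15, most widely in ATF3 and SDF2L1.

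Antioxidant genes of the NRF2 type were higher in nearly every case. Of 29 tested members 26 rose and 2 fell (all genes: 31.3% and 38.1%), with a median log2 fold change of 1.18 against -0.06 over all genes. HMOX1, haem oxygenase, went from 7.48, 7.64 and 8.23 to 11.44, 11.26 and 11.96 (203665_at, 3.77, SE 0.18, adjusted p = 8.21e-07). GCLM, the regulatory partner of glutamate-cysteine ligase in making glutathione, went from 9.58, 9.42 and 10.01 to 12.92, 12.84 and 12.81 (203925_at, 3.19, SE 0.15, adjusted p = 7.88e-07). The pairs of both genes differed little, and the other 2 probe sets of GCLM stood at 3.27 and 3.33. OSGIN1, an oxidative stress-induced growth inhibitor, stood at 2.92 (SE 0.35).

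Outside the naming rule, and chosen after their values were seen, other members show the reach of the group. The quinone reductase NQO1 rose by 2.76 (SE 0.12), thioredoxin reductase TXNRD1 by 2.17 (SE 0.07) and the catalytic glutathione subunit GCLC by 2.19 (SE 0.21). SLC7A11, the cystine importer, which ATF4 also drives, rose by 2.72, 3.84 and 1.76 in the 3 pairs. The members that fell were ABCC3, an organic anion exporter, from 9.55, 9.42 and 9.39 to 7.39, 7.05 and 7.15, and PGD of the pentose phosphate pathway at -0.27. In replicate 3 the group's median difference was 1.02, against 1.28 and 1.23 in replicates 1 and 2. The core of the antioxidant response element (TGAC, 3 bases, GC, either strand) lies in the 300-base promoter window of 7 of the 24 tested members in the RefSeq table, against 13.3% of all 35116 windows, which is common enough that a match by itself says little. GCLM is shown because it is among the largest rises; capitals mark the match, 34 bases before the start (GRCh38.p14, minus strand).
GCLM chr1:93909441-93909479: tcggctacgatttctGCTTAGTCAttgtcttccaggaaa

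**Figure D3:**
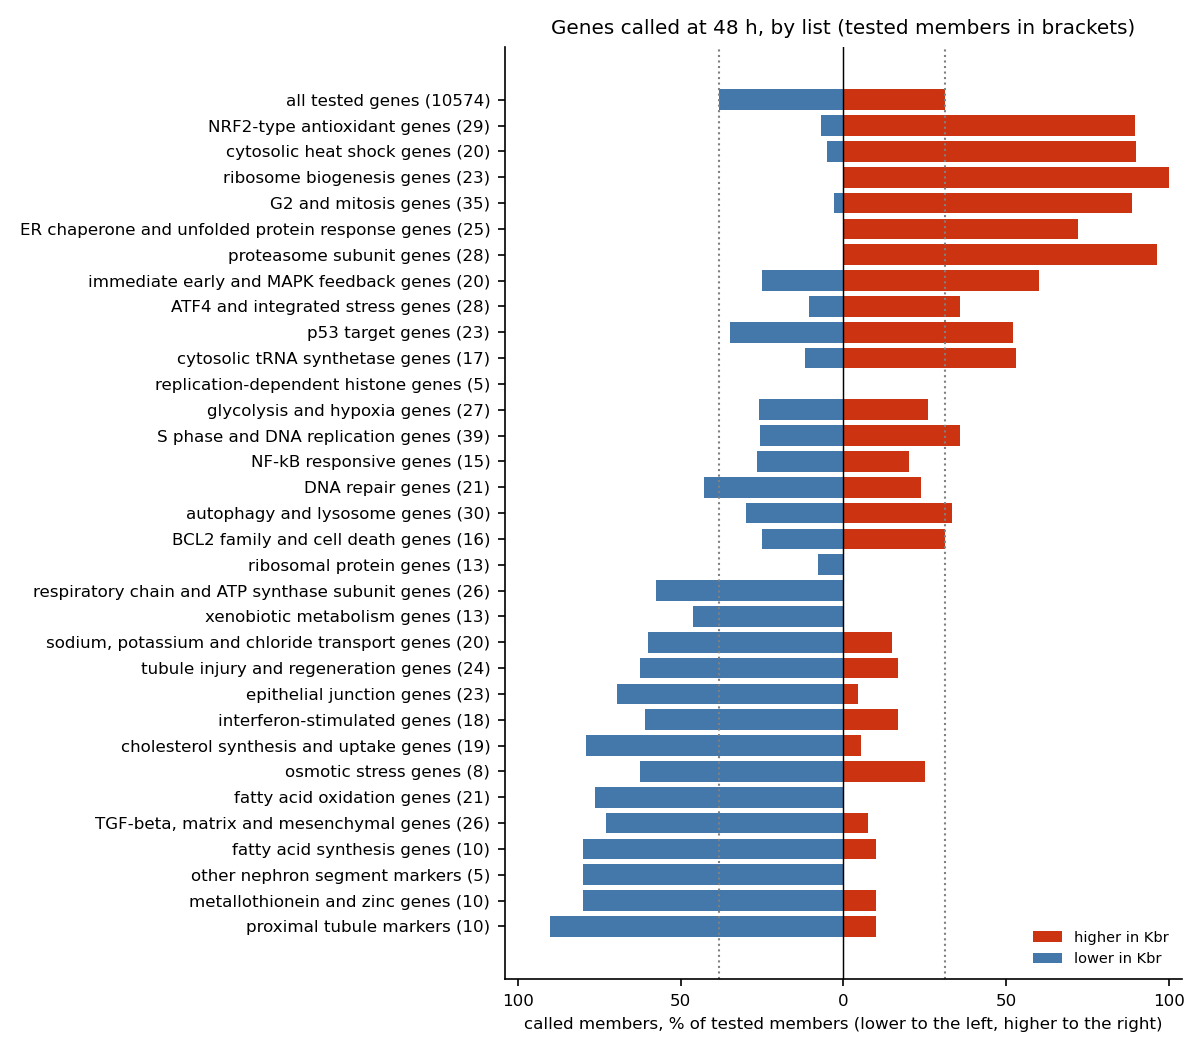
Share of tested members called lower (left, blue) and higher (right, red) at 48 h for each gene list with at least 5 tested members, in % of tested members, with all 10574 tested genes at the top; dotted lines continue the shares of all genes, 31.3% higher and 38.1% lower. Antioxidant, heat shock, ribosome biogenesis, G2 and mitosis, ER chaperone and proteasome genes lie to the right. Cholesterol, fatty acid, matrix, metallothionein and tubule genes lie to the left.

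Cytosolic chaperones and proteasome subunits were higher too, in replicate 3 as in the other pairs. Of 20 heat shock genes 18 rose and 1 fell, with a median of 1.05, and of 28 proteasome genes 27 rose and 0 fell (28 and 0 at limma's unadjusted p under 0.05), with a median of 0.66. ZFAND2A, a zinc finger protein that regulates the proteasome under stress, went from 7.79, 7.62 and 7.54 to 11.31, 11.15 and 10.47 (226650_at, 3.32, SE 0.23, adjusted p = 3.5e-06). CHORDC1, an HSP90 co-chaperone, went from 8.45, 8.60 and 8.95 to 11.57, 11.34 and 11.46 (218566_s_at, 2.79, SE 0.15, adjusted p = 1.4e-06). HSPH1, an HSP110 chaperone, stood at 2.26 (SE 0.09), with 2.28, 2.31 and 2.18 in the 3 pairs. These genes were all clear of their controls in every array. The member that fell, named after its value was seen, was the small heat shock protein CRYAB (-0.58, SE 0.14).

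In the proteasome the regulatory lid subunit PSMD12 went from 9.85, 10.37 and 10.61 to 12.13, 12.38 and 12.34 (2.01, SE 0.11), and another probe set of it stood at 0.87. The base ATPases PSMC4 and PSMC6 stood at 1.39 (SE 0.09) and 1.02 (SE 0.10). Kbr replicate 3 was above its own control in all 28 proteasome genes, and in 19 of 20 heat shock genes, whose median difference in that pair was 1.16. It had the lowest signed difference of the 3 pairs in 19 of the 28 proteasome genes and in 9 of the 20 heat shock genes. Over all genes, falling ones included, it was lowest in 44.9%. The heat shock element (GAA, 2 bases, TTC, 2 bases, GAA, or TTC, 2 bases, GAA, 2 bases, TTC) is in 5 of the 17 members with a window (DNAJA1, HSP90AA1, HSP90AB1, HSPD1 and CHORDC1), and in 0.490% of all windows. In CHORDC1, shown as the largest rise of them, 3 overlapping matches run from 60 bases before the start (GRCh38.p14, minus strand).
CHORDC1 chr11:90223072-90223124: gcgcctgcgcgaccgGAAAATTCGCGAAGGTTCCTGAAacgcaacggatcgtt

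ER chaperone and unfolded protein response genes rose in replicates 1 and 2 but little in replicate 3. Over the 3 pairs 18 of 25 members were higher and 0 lower (19 and 0 at limma's unadjusted p under 0.05), with a median of 0.71, yet the median difference was 1.32 and 0.90 in replicates 1 and 2 and 0.07 in replicate 3. Replicate 3 had the lowest signed difference in 25 of 25 members and lay below its own control in 10. Over all genes, falling ones included, it was lowest in 44.9%. Among all genes called higher its median difference was 0.54, against 0.79 and 0.72 in replicates 1 and 2. The count of members called higher depends on single arrays. It was 20 without Kbr 48 h replicate 3, 11 without Kbr replicate 1 and 10 without Kbr replicate 2. Without control replicates 1 and 2 it was 10 and 9, and it was 9 when only the 6 arrays of 48 h were fitted.

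SDF2L1, an ER chaperone cofactor, went from 6.10, 6.43 and 6.47 to 10.86, 10.37 and 8.12 (218681_s_at, 3.45, SE 0.57, adjusted p = 0.000536). HSPA5, the ER chaperone BiP (named after its value was seen), went from 13.20, 12.80 and 13.05 to 15.40, 15.09 and 13.99 (211936_at, 1.81, SE 0.29, adjusted p = 0.000457). Both were above control in the 3 pairs, with the smallest step in replicate 3. HERPUD1, an ER-associated degradation protein, went from 11.21, 10.92 and 10.71 to 13.26, 13.22 and 10.50. Its differences were 2.06, 2.31 and -0.21, so the mean of 1.38 (SE 0.51, adjusted p = 0.0352; 0.0555 without the replicate block) covers a rise in 2 pairs and none in replicate 3. Without Kbr 48 h replicate 3 it was 2.23 (SE 0.13, adjusted p = 4.29e-06). The co-chaperones DNAJC3 (3.17, 2.06 and 0.83) and DNAJB11 (2.38, 2.21 and 1.02) and the transcription factor XBP1 (1.17, 1.55 and 0.07) also rose least in replicate 3. CANX, the lectin chaperone calnexin, differed by 0.45, 0.40 and 0.37, close to equal in the 3 pairs.

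The ER stress element, read by ATF6 (CCAAT, 9 bases, CCACG, either strand), is in the windows of 7 of the 24 members that the RefSeq table holds and in 0.0769% of all 35116 windows. The members are HSPA5, HSP90B1, PDIA6, CALR, CANX, CRELD2 and ERO1B. Of these 5 were called higher, while CALR stood at 0.24 and PDIA6 at 0.07, neither past the test. The windows below show the same letters before genes that rose and before CALR; capitals mark the matches, and a match is no proof of binding (GRCh38.p14; HSPA5 and ERO1B on the minus strand, the others on the plus strand).
HSPA5 chr9:125241376-125241424: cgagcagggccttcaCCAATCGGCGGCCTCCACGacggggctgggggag
CRELD2 chr22:49918539-49918587: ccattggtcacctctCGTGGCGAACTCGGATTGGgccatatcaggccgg
CANX chr5:179698763-179698811: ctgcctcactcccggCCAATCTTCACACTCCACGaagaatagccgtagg
ERO1B chr1:236282168-236282208: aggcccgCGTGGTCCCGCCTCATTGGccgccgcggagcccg
CALR chr19:12938369-12938417: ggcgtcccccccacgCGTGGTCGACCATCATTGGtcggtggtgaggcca

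The matches of HSPA5 and CRELD2 begin 66 and 80 bases before the start, those of CANX, CALR and ERO1B 151, 225 and 243 bases before it. The values of CRELD2, a secreted ER stress protein, went from 9.41, 9.24 and 9.44 to 11.18, 10.51 and 9.35, those of ERO1B, an ER oxidase, from 4.61, 4.53 and 4.50 to 7.04, 5.54 and 4.77. Those of CALR, calreticulin, went from 10.73, 10.35 and 10.43 to 11.23, 10.51 and 10.50. In CRELD2 and ERO1B replicate 1 was highest and replicate 3 at or near its control, and in CALR replicate 1 alone stood apart.

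Genes of the ATF4 and integrated stress list split by member and by replicate. Of 28 tested members 10 rose and 3 fell, near the 31.3% and below the 38.1% of all genes. The median was 0.88 and 1.07 in replicates 1 and 2 and -0.08 in replicate 3, where 16 of 28 members were below their own control. Without Kbr 48 h replicate 3 the count was 20 higher and 3 lower. The subunits of the large neutral amino acid exchanger kept their rise in replicate 3: SLC7A5 differed by 2.37, 3.86 and 2.46 (2.90, SE 0.47) and SLC3A2 by 2.60, 3.20 and 2.08 (2.63, SE 0.30). Others, chosen after their values were seen, rose less in that pair or lay below its control. DDIT3, the transcription factor CHOP, went from 10.74, 8.93 and 8.87 to 12.91, 12.83 and 9.55 (2.25, SE 0.68, adjusted p = 0.0156). CTH, which makes cysteine from cystathionine, differed by 2.65, 3.21 and 0.42, and PPP1R15A, which restores translation, by 2.62, 2.83 and 0.86. ASNS, asparagine synthetase, was higher than control in replicates 1 and 2 (0.40 and 0.92), lower in replicate 3 (-1.18) and not called. The members that fell were DDIT4, VLDLR and PHGDH (-1.01, -0.97 and -0.60).

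The 17 tested cytosolic tRNA synthetase genes, several of them ATF4 targets, held 9 that rose (5 and 4 without replicates 1 and 2 of every group) and 2 that fell (0 without the replicate block), with a median of 0.34. The shares were 52.9% and 11.8%, against 31.3% and 38.1% of all genes. The median difference was 0.59, 0.50 and 0.10 in replicates 1 to 3. GARS1, for glycine, went from 11.36, 10.78 and 10.97 to 12.48, 12.06 and 11.18 (0.87, SE 0.25, adjusted p = 0.0107), with Kbr replicate 3 inside the control range. HARS1, for histidine, stood at 0.78 (SE 0.09). VARS1, for valine, stood at -0.78 (SE 0.08, adjusted p = 2.52e-05; 0.0918 without the replicate block). The amino acid response element (TGATG, 1 base, AA) is in 4 of 24 ATF4 list windows, none of them of a gene called higher, against 3.61% of all windows.

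**Figure D4:**
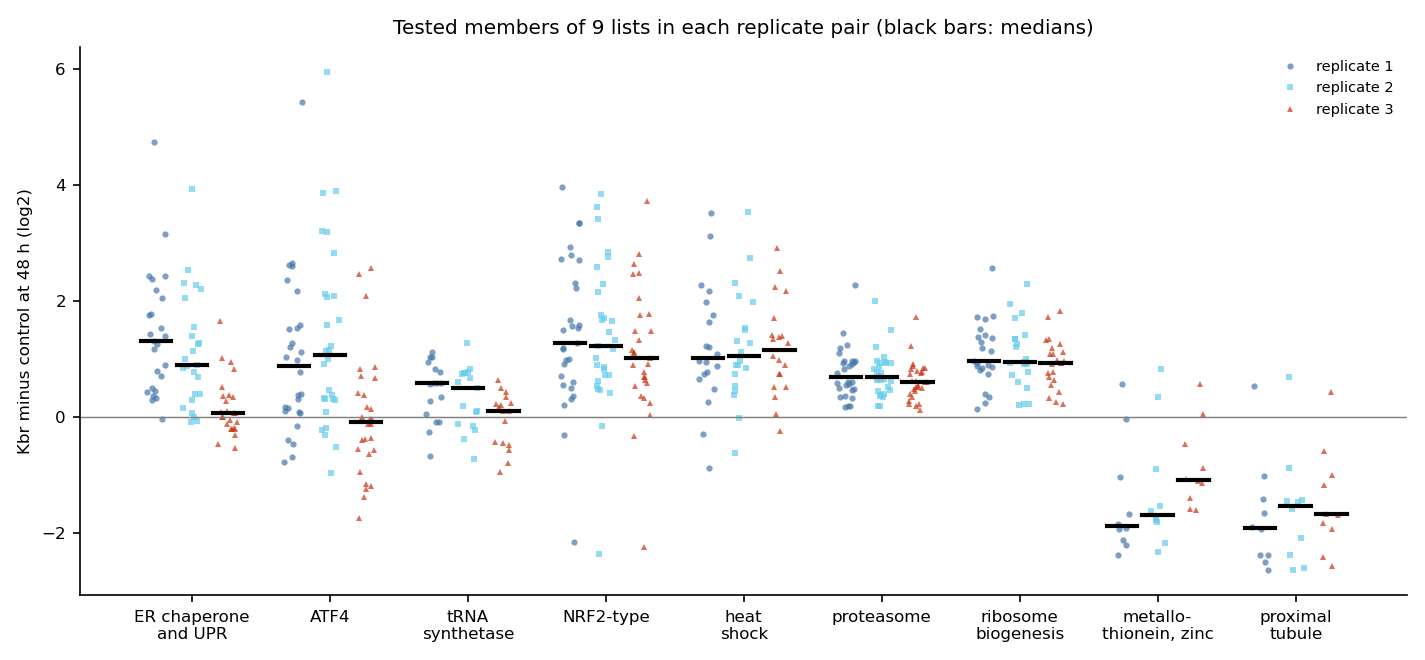
Kbr minus control differences (log2) at 48 h of the tested members of 9 gene lists, in replicates 1 (circles), 2 (squares) and 3 (triangles); black bars are medians. Medians of ER chaperone and ATF4 genes fall to 0.07 and -0.08 in replicate 3, while heat shock and ribosome biogenesis medians (1.16 and 0.94) do not fall with them.

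Over all genes, the pair of replicate 3 showed the same pattern of change with smaller rises. The 3 pairs had 1190, 1006 and 526 genes at least 2-fold higher and 1822, 1646 and 1645 at least 2-fold lower. The slope of replicate 3 on the mean of the other pairs was 0.792, against 1.06 and 1.01 for replicates 1 and 2. Across genes, which are not independent, its differences correlated at 0.871 and 0.898 with those of replicates 1 and 2, which correlated at 0.936 with each other. It stood apart by more than 1 in 448 genes, below the others in 337 and above in 111. Replicates 1 and 2 did so in 262 and 136 genes. Without Kbr 48 h replicate 3, 3436 genes were higher and 3962 lower; 393 calls were lost, 453 gained and 0 changed direction.

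Single genes show both sides of this. EREG, the EGF-family ligand epiregulin, went from 9.06, 7.85 and 8.37 to 11.21, 10.12 and 8.33, and CXCL2, a neutrophil-attracting chemokine, from 9.29, 8.94 and 9.67 to 11.34, 10.50 and 9.27. Neither was called over the 3 pairs (adjusted p = 0.0869 and 0.0552). Without Kbr 48 h replicate 3 they stood at 2.49 (SE 0.41, adjusted p = 0.000753) and 1.75 (SE 0.24, adjusted p = 0.000306). ZNF165, a zinc finger gene, differed by 2.24, 2.45 and 0.17, and C17orf100, of unknown function, by 1.92, 1.80 and -0.47. On the other side, NTHL1, a DNA glycosylase, was at 3.02, 3.06 and 5.23 in Kbr, the coat protein gene COPZ2 at 4.30, 4.21 and 5.92, the butyrophilin BTN3A1 at 5.53, 5.00 and 6.51 and the divergent transcript BAIAP2-DT, beside BAIAP2, at 5.15, 5.27 and 6.20. In these the fall was smallest in replicate 3, and the membrane protein TMEM171 rose most there (1.27, 0.81 and 2.47). Not every such gene was set apart by the Kbr array. For the hedgehog co-receptor BOC the control of replicate 3 was low (7.60, 7.67 and 5.35), and for the phosphate transporter SLC34A2 it was high (5.69, 5.33 and 7.98).

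**Figure D5:**
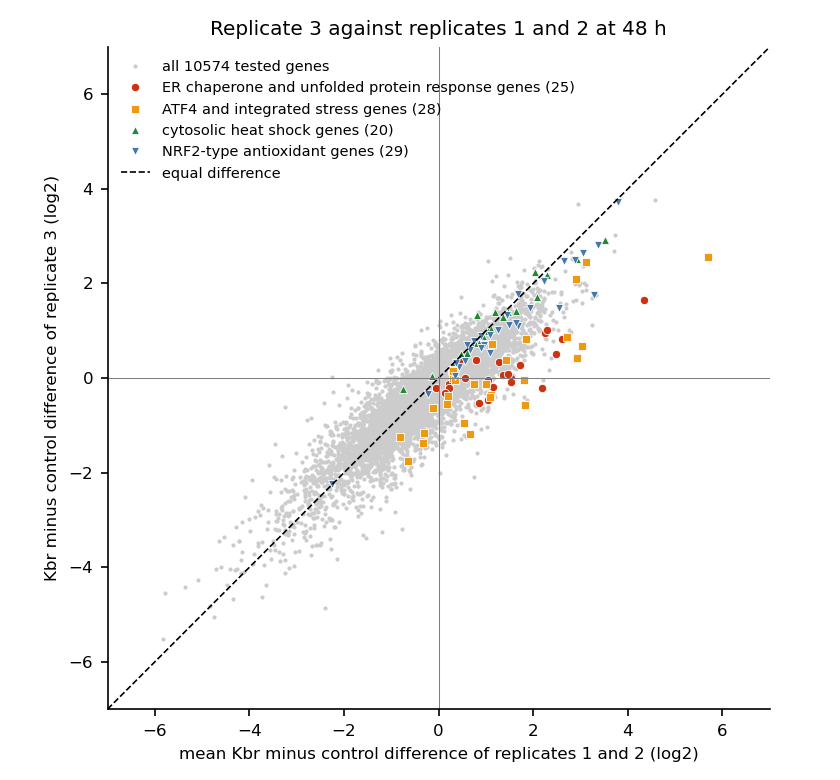
For each of 10574 tested genes, the Kbr minus control difference of replicate 3 (vertical, log2) against the mean difference of replicates 1 and 2 (horizontal, log2), with 4 gene lists in colour and the line of equal differences dashed. ER chaperone and ATF4 genes lie under the line, 25 of 25 and 25 of 28 below both other pairs, and heat shock genes lie on both sides of it (9 of 20).

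Targets of p53 moved in both directions. Of 23 tested members 12 (52.2%) rose and 8 (34.8%) fell, against 31.3% and 38.1% of all genes, with a median of 0.46. PMAIP1, the cell death factor NOXA, went from 9.48, 9.67 and 9.99 to 12.35, 12.42 and 12.51 (2.72, SE 0.13, adjusted p = 7.88e-07). CDKN1A, the cell cycle inhibitor p21 (named after its value was seen), differed by 1.47, 2.11 and 1.46. DDB2, a damage sensor of nucleotide excision repair, went the other way, from 7.85, 7.86 and 8.16 to 4.77, 5.78 and 5.54 (-2.59, SE 0.24), and so did TP53INP1, a p53-inducible nuclear protein (-2.33, SE 0.15). Each of these genes moved the same way in the 3 pairs. The papillomavirus oncogenes used to immortalise this line act on p53, which limits it as a model of that response.

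Cell death and repair genes were as mixed. Of 16 BCL2-family and cell death genes 5 rose and 4 fell (2 and 2 without the replicate block), and the share that rose was that of all genes, 31.3%. BAX, a pore-forming death factor, went from 8.39, 8.22 and 8.71 to 7.35, 7.40 and 7.56 (SE of the difference 0.10). MCL1, a survival factor, stood at -1.03 (SE 0.09), but the unsuffixed probe set of MCL1 was at -0.03 (adjusted p = 0.877). Of 21 DNA repair genes 5 (23.8%) rose and 9 (42.9%) fell, with a median of 0.05, near the 31.3% and 38.1% of all genes. NEIL3, a glycosylase of S phase, went from 7.60, 7.88 and 8.02 to 10.32, 10.34 and 9.84 (2.33, SE 0.16). NTHL1 stood at -2.78 (SE 0.40) and ERCC1, an excision repair nuclease subunit, at -1.62 (SE 0.11). The 2 glycosylases lay at opposite ends of this list. Without Kbr 48 h replicate 3, or with quantile normalization, 8 repair genes rose.

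Mitotic genes were higher in Kbr cultures. Of 35 tested G2 and mitosis genes 31 were higher and 1 lower than in the controls of 48 h, with a median of 0.76. The medians of the 3 pairs were 0.72, 0.79 and 0.68. CCNB1, the mitotic cyclin, went from 11.58, 11.87 and 12.06 to 12.90, 12.98 and 13.18 (1.19, SE 0.10, adjusted p = 8.77e-06), with the pairs nearly equal. KIF2C, a microtubule depolymerase of the kinetochore, stood at 1.37 (SE 0.10) and the checkpoint protein MAD2L1 at 1.23 (SE 0.13). From 24 to 48 h the control means of CCNB1, KIF2C and MAD2L1 went from 12.67, 11.01 and 11.83 to 11.84, 10.38 and 11.20. Their Kbr means went from 13.35, 11.68 and 12.61 to 13.02, 11.74 and 12.43. The member that fell, named after its value was seen, was the mitotic kinesin KIF20A (-0.74, SE 0.17).

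Replication genes moved both ways, at shares not far from those of all genes. Of 39 members 14 (35.9%) rose (9 without replicate 1 or replicate 2 of every group) and 10 (25.6%) fell, with a median of 0.09. The 3 largest changes were rises of factors that load or start the replicative helicase: CDC6 from 8.01, 8.34 and 8.73 to 11.55, 11.44 and 10.48 (2.80, SE 0.28, adjusted p = 2.81e-05), MCM10 at 2.66 (SE 0.19; pairs of 3.14, 2.85 and 2.00) and the origin recognition subunit ORC6 at 1.74 (SE 0.08). The members that fell, named here after their values were seen, included the polymerase subunits POLD1, PRIM1 and POLA1 (-1.21, -1.12 and -1.02) and the helicase subunits MCM6, MCM5 and MCM7 (-0.76, -0.58 and -0.54). None of 5 replication-dependent histone genes was called by limma, and 0 had an unadjusted p under 0.05, H2BC5 being nearest at 0.31 (adjusted p = 0.0758). H2BC5, H2BC6 (0.29) and H2BC12 (0.19) had their largest difference in replicate 3 (0.72, 0.81 and 0.79), and with quantile normalization 3 of the 5 were called higher.

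Genes that make ribosomes rose, while few ribosomal protein genes passed the test. All 23 tested ribosome biogenesis genes were called higher, with a median of 1.00 and pair medians of 0.96, 0.95 and 0.94. UTP15, of the small-subunit processome, went from 7.14, 7.74 and 7.74 to 9.70, 10.03 and 9.56 (2.23, SE 0.16). BYSL, a small-subunit assembly factor, stood at 1.80 (SE 0.09) and NOP2, an rRNA methyltransferase, at 1.58 (SE 0.13). Of 13 ribosomal protein genes 0 rose and 1 fell (0 and 3 at limma's unadjusted p under 0.05), RPL3 from 14.61, 14.46 and 14.46 to 14.15, 14.09 and 13.98. RPS6 and RPL11 stood at -0.16 and -0.15 (adjusted p = 0.0592 and 0.0652). The median of the 13 was -0.05 as deposited and 0.04 with median centring. Their control means lay at 14.42 to 15.45, near the highest value of any array, 16.16, and those of the ribosome biogenesis genes at 6.05 to 15.03. The part of these levels in the contrast was not tested.

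Most genes of cholesterol and fatty acid synthesis were lower. GPAT3 of triglyceride synthesis, among the largest rises above, is in neither list. In cholesterol synthesis and uptake 15 of 19 members fell and 1 rose, with a median of -0.69. TM7SF2, a sterol reductase, went from 9.02, 8.53 and 8.63 to 4.20, 3.71 and 3.81 (210130_s_at, -4.82, SE 0.18, adjusted p = 3.74e-07), the same step in every pair. LSS, lanosterol synthase, stood at -1.66 (SE 0.07) and INSIG1, the sterol-regulated retention protein, at -1.49 (SE 0.13). Other probe sets of LSS stood at -1.46 and -0.19, with 1 called lower. The member that rose, named after its value was seen, was the sterol dehydrogenase NSDHL (0.64, SE 0.08). In fatty acid synthesis 8 of 10 fell and 1 rose, with ACSS2, acetyl-CoA synthetase, from 11.27, 10.79 and 11.13 to 8.38, 8.53 and 8.19 (-2.70, SE 0.15). SREBF1, the transcription factor of lipid synthesis, stood at -1.68 (SE 0.10) and the synthase FASN at -1.23 (SE 0.08). The elongase ELOVL5, named after its value was seen, rose by 0.44.

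Mitochondrial genes of fat use were lower as well. Of 21 fatty acid oxidation genes 16 fell and 0 rose, by limma's adjusted and unadjusted p alike, with a median of -0.72. PPARGC1A, the coactivator of mitochondrial genes, went from 8.76, 8.74 and 8.30 to 7.29, 7.44 and 6.01 (-1.69, SE 0.21), lowest in replicate 3. ECI1, an enoyl-CoA isomerase, stood at -1.64 (SE 0.08) and ACADVL, the very long-chain acyl-CoA dehydrogenase, at -1.51 (SE 0.10). Respiratory chain and ATP synthase genes fell less, 15 of 26 with a median of -0.22, led by the ATP synthase subunit ATP5MC1 (-1.24, SE 0.11), the complex I subunit NDUFV1 (-1.04, SE 0.09) and NDUFA2 (-0.70, SE 0.13). The share of these genes that fell was 57.7%, against 38.1% of all genes. With unsuffixed probe sets preferred 9 fell and 2 rose, and without replicates 1 and 2 of every group 9 and 7 fell.

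Glycolysis and hypoxia genes did not move as a group, with 7 of 27 higher (13 with median centring) and 7 lower and a median of 0.14. The share that rose, 25.9%, was under that of all genes. Besides ADM, described above, VEGFA, the vascular growth factor, went from 10.51, 9.69 and 9.80 to 12.78, 12.68 and 11.20 (2.22, SE 0.35) and the glucose transporter SLC2A1 from 6.69, 6.61 and 7.05 to 8.52, 8.35 and 8.08 (1.53, SE 0.14). VEGFA was lowest in replicate 3 among the Kbr arrays and still above every control. Of 30 autophagy and lysosome genes 10 (33.3%) rose and 9 (30.0%) fell, close to the 31.3% and 38.1% of all genes. The largest changes among them were in ATG16L1 of autophagosome formation (1.67, SE 0.19), the receptor SQSTM1 (1.47, SE 0.11) and GABARAPL1 (1.23, SE 0.14).

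Metallothioneins, small proteins that bind zinc and copper, were lower. Of 10 metallothionein and zinc genes 8 fell and 1 rose, with a median of -1.55. MT1F went from 13.20, 12.86 and 12.98 to 10.82, 10.68 and 11.38 (-2.06, SE 0.13), MT1M stood at -2.04 (SE 0.15) and MT1E at -1.72 (SE 0.12). The pair medians were -1.88, -1.69 and -1.09, and replicate 3 had the smallest fall in 8 of the 10. The gene that rose, named after its value was seen, was MTF1, the zinc-sensing factor that drives metallothioneins (0.66, SE 0.08). These paralogues are near-identical, and probe sets such as those of MT1F and MT1E can bind several of them.

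Osmotic and ion transport genes fell more often than they rose, and drug-handling genes lay nearer to all genes. Of 8 osmotic genes 2 rose and 5 fell: the betaine transporter SLC6A12 went from 4.54, 5.07 and 6.02 to 3.20, 3.21 and 3.32, the kinase SGK1 from 13.87, 13.93 and 13.68 to 11.63, 11.99 and 12.30 (-1.85, SE 0.15), and S100A4, a calcium-binding protein, stood at -1.65 (SE 0.19). Among 20 ion channel and transporter genes 3 rose and 12 fell, with KCNN4, CLCN5 and KCNJ15, channels or exchangers for potassium and chloride, at -1.30, -1.20 and -1.06. The other probe sets of CLCN5 ran from -1.17 to 0.31, with 1 called lower and 0 called higher. Of 13 xenobiotic genes 0 rose (1 at limma's unadjusted p under 0.05) and 6 fell, 46.2% against 38.1% of all genes, with a median of -0.25. The sulfotransferase SULT1A1 stood at -1.75 (SE 0.13), the glutathione transferase GSTA4 at -1.51 (SE 0.12) and the drug exporter ABCB1 at -1.21 (SE 0.15).

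Genes of the tubule epithelium were lower. The label of proximal tubule was first set against its markers: of 30 on the array 20 were under a log2 value of 4 in all 6 arrays, among them the endocytic receptors LRP2 and CUBN, the phosphate transporter SLC34A1 and the water channel AQP1, so many defining transcripts were at background in control cultures too. The log2 summed level of the 30 was 14.8 to 15.3 in control and 13.6 to 13.8 in Kbr. Of the 10 tested 9 fell and 1 rose, with a median of -1.60. CDH6, the proximal tubule cadherin, went from 12.43, 12.98 and 12.30 to 9.94, 10.34 and 9.74 (-2.57, SE 0.14, adjusted p = 1.35e-06). SLC3A1, of the cystine transporter, stood at -2.55 (SE 0.16) and AGT, angiotensinogen, at -2.23 (SE 0.23). The transcription factor PAX8, named after its value was seen, stood at 0.56 (SE 0.09), but another of its probe sets was called lower. In such arrays a lower share of cells with a transcript and less of it per cell cannot be told apart.

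Injury markers of the tubule did not rise as a group: 4 of 24 were higher and 15 lower, with a median of -0.56. VCAM1, an adhesion molecule, went from 6.08, 6.37 and 6.93 to 2.93, 3.39 and 2.95 (-3.37, SE 0.23), the keratin KRT19 stood at -1.95 (SE 0.10) and the stem cell marker PROM1 at -1.90 (SE 0.32). HAVCR1, kidney injury molecule KIM-1, named after its value was seen, went from 11.20, 11.34 and 11.42 to 9.32, 9.40 and 9.86. Of 23 junction genes 1 rose and 16 fell, with the desmosomal PPL at -3.93 (SE 0.16), tight junction CGN at -3.35 (SE 0.28) and the cation-selective claudin CLDN2, from 11.37, 10.85 and 10.76 to 7.55, 8.01 and 8.59. Of 26 matrix and mesenchymal genes 2 rose and 19 fell, with a median of -0.74. COL1A1, a collagen chain, stood at -2.66 (SE 0.17), its other 2 probe sets not being called, and the basement membrane genes COL4A2 and LAMB1 at -1.68 (SE 0.09) and -1.56 (SE 0.08).

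Markers of other cells were mostly at background. Of fibroblast markers 7 of 10 were under 4 in all 48 h arrays, among them PDGFRB and THY1, but DCN, LUM and COL1A1 were measured and fell, DCN from 11.91, 11.91 and 11.88 to 9.94, 9.85 and 10.20. Their log2 summed level was 12.28 to 12.35 in control and 10.21 to 10.63 in Kbr. Of 11 endothelial and leukocyte markers 10 were under 4, including PTPRC, and the tested member TEK stood at 0.09 (adjusted p = 0.383), with a log2 summed level of 6.26 to 6.30 in control and 6.29 to 6.40 in Kbr. Of other nephron markers 11 of 16 were under 4 and 4 of 5 tested fell, with the collecting duct genes AQP3 at -3.59 (SE 0.38) and SCNN1A at -1.79 (SE 0.14; its other probe set at 0.01, not called) and SYNPO at -0.88 (SE 0.22; adjusted p = 0.0986 with quantile normalization). Their log2 summed level was 9.77 to 10.08 in control and 8.28 to 8.64 in Kbr. Of 18 squamous markers 14 were under 4, and besides SCEL the keratin KRT10 stood at 0.77 (SE 0.07) and SPRR1A at 0.13 (adjusted p = 0.245), with a log2 summed level of 12.26 to 12.47 and 12.29 to 12.38. The part of such cells in the results was not tested.

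Immune and early response genes had no common direction. Against 31.3% higher and 38.1% lower over all genes, interferon-stimulated genes stood at 16.7% and 61.1% and immediate early genes at 60.0% and 25.0%. Of 18 interferon-stimulated genes 3 rose and 11 fell (1 and 8 without the replicate block), with IFI44L from 9.12, 9.08 and 7.48 to 5.33, 6.12 and 4.60 (-3.21, SE 0.25), IFITM1 at -2.90 (SE 0.17) and IFITM3 at -2.37 (SE 0.19), the latter pair being viral entry inhibitors. Of 15 NF-kB responsive genes 3 (20.0%) rose and 4 (26.7%) fell (1 and 3 without the replicate block). Both shares were under the 31.3% and 38.1% of all genes. CCL2, a monocyte chemokine, went from 6.50, 7.87 and 6.71 to 3.88, 3.88 and 5.07, IL1B stood at -1.75 (SE 0.30), and IL6 went from 3.32, 3.12 and 4.85 to 4.74, 5.37 and 5.33 (1.38, adjusted p = 0.0031; 0.0705 without the replicate block). Of 20 immediate early genes 12 rose and 5 fell: after ATF3 and FOSL1 came the phosphatase DUSP5, from 9.42, 9.00 and 9.87 to 12.28, 12.05 and 11.91 (2.65, SE 0.17). EGR1, a growth factor-induced transcription factor named after its value was seen, went from 11.22, 10.63 and 11.07 to 8.25, 8.37 and 8.48.

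The effect at 48 h differed from that at 24 h in 2140 genes (20.2%), by the interaction term of the same fit, more positive in 934 and more negative in 1206. Of the genes called at both times 4629 had the same direction and 13 the opposite. Some of these differences lay in the Kbr arrays and some in the controls. The effect on SDF2L1 was 0.26 at 24 h and 3.45 at 48 h, while its Kbr mean went from 7.31 to 9.78 and its control mean from 7.05 to 6.33. EFEMP1 went from an effect of -2.12 to -5.37 with control means of 8.34 and 8.37. TM7SF2 went from -1.92 to -4.82 with control means of 8.25 and 8.73. For TNFAIP6 (0.96 and 3.19) the Kbr means were 7.02 and 6.51, and the control mean fell from 6.06 to 3.32, under 4 (adjusted p = 0.00112). For BLNK (-1.18 and -4.82) the Kbr means were at background at both times, 2.65 and 2.72, and the control mean rose from 3.83 to 7.54 (adjusted p = 0.000834). Both sides moved in CDC6 (0.77 and 2.80), whose control mean went from 9.43 to 8.36 and whose Kbr mean went from 10.20 to 11.16. SLC44A5, a choline transporter-like gene, went from an effect of -1.35 to -4.11, and its 48 h arrays were at 9.17, 9.52 and 8.92 in control and 5.09, 5.38 and 4.81 in Kbr. Without the replicate block the count was 590, and leaving out 1 array or 1 replicate number moved it from 0 to 3527.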

How the data were processed

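RNA of 12 HK-2 cultures was read on Affymetrix arrays. The authors deposited log2 values from GCRMA (named in the submitters' processing notes without a version); GCRMA gives unbound probe sets a low value near 2 to 4, so large falls end there. The arrays carried 54675 probe sets, of which 41091 name 1 gene, 1801 several and 11721 none, and 62 are controls. Each gene was represented by its brightest single-gene probe set (mean over arrays), and tested if 3 or more arrays exceeded 4 on the log2 scale (9201 genes left out).

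Differences were fitted with limma 3.58.1 in R 4.3.3 on all 12 arrays, with 4 group means and a block for each replicate number (residual degrees of freedom 6, two-sided, Benjamini-Hochberg over all tested genes), after a check on simulated data. Same-numbered arrays deviated together: their 18 correlations were 0.232 to 0.633, against -0.378 to -0.004 for 36 pairs of different numbers. Deviations were taken from group means, so positive values for same numbers push those of different numbers to be negative. The ranges are therefore not independent. Single-pair differences were not tested. The alternatives were no block, 48 h arrays only, other filters, other probe set choices, centring, quantile normalization, an offset, other priors, array weights and left-out arrays.

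Named genes are the 15 largest rises and falls with arrays that do not overlap, the 3 largest members of each of 35 lists, the 6 genes with replicate 3 farthest above and the 6 farthest below, among genes whose replicates 1 and 2 differ by under 0.5, and the 5 largest gains and losses against 24 h. Members and lists were chosen with earlier results of these data known. Lists are described by counts and medians. Promoter windows (250 bases before to 50 after the start) are RefSeq's on GRCh38.p14. Tables used pandas 2.3.3 under Python 3.11.15; matplotlib 3.10.9 drew the figures.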

Additional observations from a re-analysis of the deposited data

Results flagged for a closer look

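The Kbr effect at 48 h was unlike that at 24 h in 2140 genes by the interaction term, a difference between the 2 times under the same contrast. Among genes named at 48 h the effect was more positive in SDF2L1 by 3.19 (SE 0.80), in TNFAIP6 by 2.22, in CDC6 by 2.02, in SERPINB8, a serpin, by 2.01 and in DDIAS by 1.98. It was more negative in BLNK (-3.64), EFEMP1 (-3.26), CFB (-3.01), TM7SF2 (-2.90) and SLC44A5 (-2.75). Between the times the control mean moved more than the Kbr mean in SERPINB8, BLNK, TNFAIP6, DDIAS, SLC44A5 and CDC6. SERPINB8 had Kbr means of 5.35 and 5.57 and control means of 5.18 at 24 h and 3.39 at 48 h, BLNK had 2.65 and 2.72 against 3.83 and 7.54, and TNFAIP6 had 7.02 and 6.51 against 6.06 and 3.32. Without the replicate block SERPINB8 did not pass (adjusted p = 0.0572). The interaction was also called, always more negative at 48 h, in 7 of 10 metallothionein and zinc genes, 10 of 18 interferon-stimulated genes and 7 of 10 proximal tubule markers, against 20.2% of all genes in either direction. Without the replicate block these counts were 5, 1 and 3.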

How the results depend on the processing

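Of 130 named genes 121 were called, 110 of them in all 27 alternatives that gave a value, and 0 changed direction while called. Among the named genes the block moved few calls: without it VARS1, IL6 and HERPUD1 were lost and CXCL2 gained. Over all genes it mattered more, as 6299 of the 7338 called genes were called the same way without the block. The count of genes with a 48 h effect unlike that at 24 h went from 2140 to 590. With no expression filter 5089 genes were higher. With probe sets averaged 1051 genes fell at least 2-fold. Tested per probe set, 6307 were higher and 6586 lower, 1814 and 2632 of them at least 2-fold. With an array or a replicate number left out, genes higher ran from 2470 to 3436, lower from 3317 to 4014, at least 2-fold higher from 703 to 1080, at least 2-fold lower from 1564 to 1707 and the interaction count from 0 (limma, without replicate 2 of every group, where 2111 had an unadjusted p under 0.05) over 168 (without replicate 1 of every group) to 3527 (without Kbr 48 h replicate 3). Leaving out 1 other array gave interaction counts of 1012 to 1397 where it moved them by over 1.5 times. Values near 4 set the limit for low genes.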

Other observations

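Gene families taken by symbol, chosen after their values were seen and so without a test, add to the picture at 48 h. Over all tested genes 31.3% rose and 38.1% fell. Of 19 tested collagen chain genes 17 fell and 0 rose, with a median log2 fold change of -1.15. Among them the basement membrane chains COL4A3, COL4A4 and COL4A5 of the glomerular and tubular type stood at -2.63, -2.08 and -2.22. Of 36 genes named IFT, BBS or CFAP, most of which build or serve cilia, 25 fell and 4 rose, with a median of -0.69. BBS1, a subunit of the ciliary cargo complex, went from a mean of 7.80 ± 0.12 in control to 4.61 ± 0.46 in Kbr cultures (SD, n = 3 each), and IFT88, of ciliary transport, from 7.69 ± 0.23 to 6.18 ± 0.12. Outside these symbols, and picked singly after their values were seen, CC2D2A, B9D1 and TMEM107 stood at -3.11, -3.25 and -3.49. They form the gate at the base of the cilium, whose genes were not counted as a group.

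The 7 tested subunits of the CCT chaperonin, which folds actin and tubulin, were all called higher, with a median of 0.79 and CCT3 highest at 1.10.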
